A study of Mus musculus with 4 samples.

Results

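Zscan4b, Zscan4c, Zscan4d, Zscan4e, Zscan4f, Tcstv1, Tcstv3 and Zfp352 are genes of the mouse 2-cell embryo, and their RNA levels were compared between untreated embryos and embryos cultured with dimethyl sulfoxide (DMSO). They were found by gene symbol among the 30049 Ensembl genes of the deposited table, and all 8 were present. Wild-type F2 zygotes from BDF1 × BDF1 matings were taken 18 h after human chorionic gonadotropin (hCG) injection and kept for 24 h in the embryo culture medium KSOM, which held 2% DMSO in the DMSO group and none in the control group. Both groups had reached the 2-cell stage, 50 embryos were collected per group, and 2 libraries, replicates 1 and 2, represent each group. Whether 50 embryos went into each library or were divided between libraries is not stated, and nothing says that the replicates came from separate matings or cultures, so p-values measure only the spread between these libraries. The values are TPM, a measure of transcript abundance that is scaled by transcript length and library total and that keeps no sequencing depth.

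Zscan4 genes encode proteins with a SCAN domain and zinc fingers and are expressed in a burst at the 2-cell stage and in rare mouse embryonic stem cells that resemble it, where Zscan4 is known for telomere lengthening and genome stability. Tcstv1 and Tcstv3 are members of a tandem family whose products are also linked to telomere length. Zfp352 encodes a zinc-finger protein and is used as a marker of the same 2-cell programme, which in stem cells is switched on by the homeobox factor Dux.

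The Zscan4 copies lie within 502 kb of chromosome 7 and differ at few bases, so the stretches below show why their values cannot be read as fully separate measurements. The following 60 bases of exon 4 were chosen because they hold the most differences in the coding sequence of Zscan4c, Zscan4f and Zscan4d, with the 6 positions that vary in capitals. They lie on GRCm38 at chr7:11009507-11009566 (plus strand), chr7:11401700-11401759 (plus strand) and chr7:11162351-11162410 (minus strand).
Zscan4c: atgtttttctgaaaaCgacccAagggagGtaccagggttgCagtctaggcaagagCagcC
Zscan4f: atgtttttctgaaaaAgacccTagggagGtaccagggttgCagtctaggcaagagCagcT
Zscan4d: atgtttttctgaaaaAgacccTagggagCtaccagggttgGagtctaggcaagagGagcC

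Tcstv1 and Tcstv3 lie on chromosome 13 and are less alike. Their most different 60 coding bases within 1 exon, in exon 2 at chr13:119893642-119893701 (minus strand) and chr13:120317960-120318019 (plus strand) of GRCm38, vary at 9 positions, again in capitals.
Tcstv1: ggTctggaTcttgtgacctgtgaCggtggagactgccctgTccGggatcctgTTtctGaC
Tcstv3: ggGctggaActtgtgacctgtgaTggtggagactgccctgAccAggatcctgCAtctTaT

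Over the whole coding sequence, Zscan4c and Zscan4f were 99.6% identical, with 6 mismatches in 1518 bases. Zscan4b and Zscan4e formed a second close pair at 99.7%, and Zscan4d differed from Zscan4c at 35 bases (97.7% identity). Tcstv1 and Tcstv3 were 93.6% identical. Quantification with kallisto matches reads by 31-base words, so the share of a gene's words that other genes also hold measures how far its value rests on a division of shared reads. Of the words of Zscan4b and Zscan4e, 94.0% and 93.5% also occurred in other genes of the table, and of those of Zscan4c and Zscan4f 80.5% and 85.3%. Zscan4d had the lowest share of the family at 56.2%, and 35.0% of its words occurred in no other annotated gene. The relatives Zscan4a, Zscan4-ps1, Zscan4-ps2 and Zscan4-ps3 are not analysed here, and with them 89.0% of the words of Zscan4c and 86.1% of those of Zscan4f were shared. For Tcstv1, Tcstv3 and Zfp352 the shares in other genes of the table were 28.6%, 51.0% and 21.5%.

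**Figure D1:**
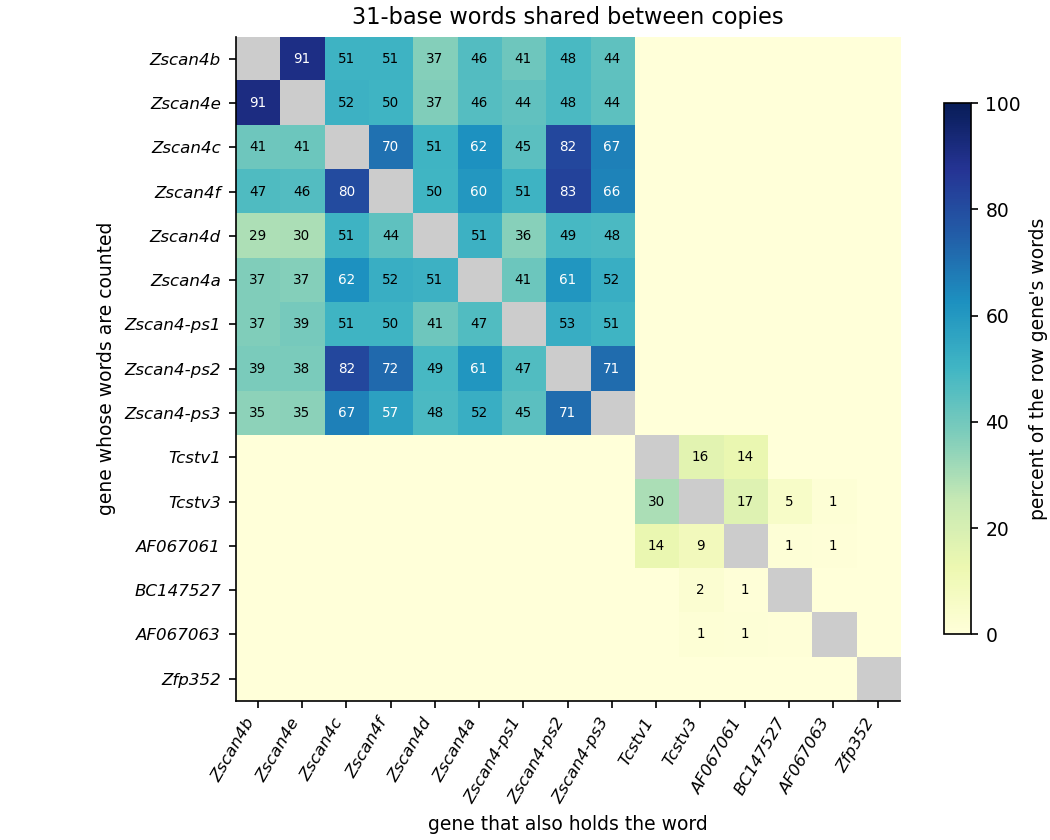
Percent of the 31-base words of each gene (rows) that also occur in each other gene (columns) among the Zscan4, Tcstv and Zfp352 genes and their relatives, from the reference transcripts. The Zscan4 copies form 1 block in which Zscan4b and Zscan4e share 91.1% of the words of Zscan4e, while Tcstv genes share far fewer and Zfp352 shares none with any gene shown.

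The sequence before each gene start was examined for an 11-letter Dux motif and for the letters TGCACAC (a Zscan4 motif) on both strands of RefSeq promoters (GRCm38.p6, 250 bases before to 50 after the start). Promoters were at hand for Zscan4b, Zscan4c, Zscan4d, Zscan4f and Zfp352, and for the Tcstv relatives AF067061 and BC147527. Neither motif was found in these 7 windows, and over 32544 distinct promoters the shares that held them were 0.0338% and 4.42%. TATAAA and TAATCC were added to the search after the sequences had been seen. TATAAA occurred once in each of the 4 Zscan4 promoters, beside 13.6% of all promoters. Below are the 101 bases round it, cut at the same place in each copy to show how alike the promoters of copies with unlike levels are. TATAAA is in capitals, and the stretches lie at chr7:10905051-10905151 (minus strand), chr7:11005621-11005721 (plus strand), chr7:11166183-11166283 (minus strand) and chr7:11397814-11397914 (plus strand).
Zscan4b: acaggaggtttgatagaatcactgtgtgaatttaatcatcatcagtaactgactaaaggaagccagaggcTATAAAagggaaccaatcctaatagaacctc
Zscan4c: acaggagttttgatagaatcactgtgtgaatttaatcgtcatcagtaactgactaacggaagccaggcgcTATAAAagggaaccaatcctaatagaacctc
Zscan4d: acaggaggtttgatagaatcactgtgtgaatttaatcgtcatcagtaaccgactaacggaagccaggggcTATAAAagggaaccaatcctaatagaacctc
Zscan4f: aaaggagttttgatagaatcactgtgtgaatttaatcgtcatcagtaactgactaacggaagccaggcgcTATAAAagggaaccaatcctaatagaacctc

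Of these 101 positions, 7 varied among the copies. Zscan4c differed from Zscan4f at 1 of them, Zscan4d at 4 and Zscan4b at 6.

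In the Zfp352 promoter TAATCC, the core recognised by bicoid-class homeobox proteins such as Otx2 and Crx, occurred 9 times, each time on the plus strand and within a repeated unit. At least 1 TAATCC was present in 7.06% of all promoters, and no other promoter of the 32544 held 5 or more. Among the other 6 windows it occurred 3 times in AF067061, once in BC147527 and in none of the Zscan4 copies. The 250 bases before the Zfp352 start, chr4:90218570-90218819 on the plus strand of GRCm38.p6, are shown for this array, with TAATCC in capitals.
Zfp352: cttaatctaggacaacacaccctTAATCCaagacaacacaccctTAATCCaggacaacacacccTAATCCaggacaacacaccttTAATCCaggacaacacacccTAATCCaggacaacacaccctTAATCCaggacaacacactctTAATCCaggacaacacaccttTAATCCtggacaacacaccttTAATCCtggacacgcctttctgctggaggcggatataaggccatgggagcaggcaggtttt

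These matches describe letters only, and the binding of no factor was measured.

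In the control embryos Tcstv3 had the highest level of the 8 genes, followed by Zscan4f, Tcstv1 and Zfp352, and then by Zscan4c, Zscan4d, Zscan4b and Zscan4e. The control mean of Tcstv3 was 253 TPM ± 62.0 (SD, n = 2), and that of Zscan4f 147 TPM ± 10.0 (SD, n = 2). The control ranges of Zscan4f, Tcstv1 and Zfp352 overlapped, so the order of these 3 was not separated by the spread between libraries. Each step from Zscan4c down to Zscan4e was wider than that spread. In the DMSO embryos Tcstv1 and Zfp352 stood above Zscan4f in both libraries.

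DMSO embryos had higher levels of Tcstv1, Tcstv3 and Zfp352, between 2.55 and 3.99 times their control means. Zscan4c and Zscan4f were also higher in both DMSO libraries but did not pass the test, and Zscan4b and Zscan4d lay close to their control values. Zscan4c and Zscan4f were called when libraries of equal replicate number were fitted as pairs (adjusted p = 0.0262 and 0.0270, limma). That fit called 17.9% of all genes tested higher, and nothing says that these libraries are pairs. The test was limma on log2(TPM + 1) over the 12038 genes whose mean reached 1 TPM, with Benjamini-Hochberg adjustment over all of them and a threshold of 0.05. Of the 8 genes, 7 were tested, 3 were called higher and 0 lower. Among all genes tested, 6.42% were called higher and 14.1% lower, or 773 and 1697 of 12038. That split depended on the scaling, with 949 and 1262 genes under median-ratio scaling and 1076 and 1121 under quantile normalization. The DMSO libraries lay above both control libraries for 5 of the 7, beside 31.1% of all genes tested, and below both for 0, beside 38.7%. For 2 genes the groups overlapped. The median log2 fold change of the 7 was 0.81, against -0.09 over all genes tested. Zscan4e was under the limit of 1 TPM and was not tested.

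**Figure D2:**
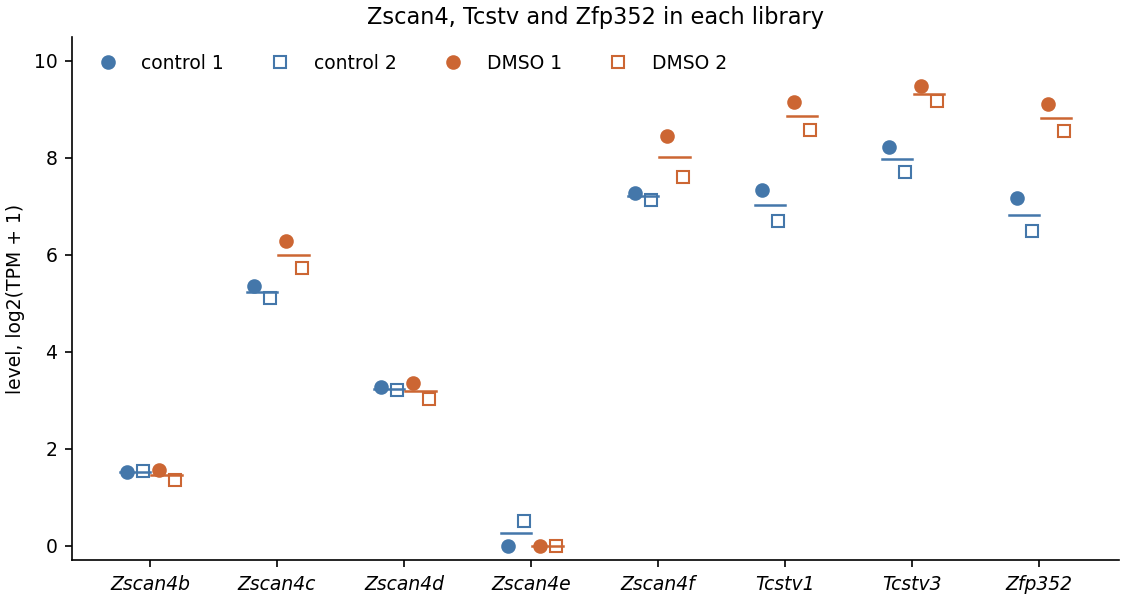
Level of each gene in each library as log2(TPM + 1), with controls in blue, DMSO in orange, replicate 1 as filled circles, replicate 2 as open squares, and bars at the mean of each group's 2 libraries. The points of the 2 groups are apart for Zscan4c, Zscan4f, Tcstv1, Tcstv3 and Zfp352 and mixed for Zscan4b and Zscan4d, and Zscan4e is at 0 in all libraries but control replicate 2.

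Zscan4f (ENSMUSG00000070828, chr7:11397915-11402318, plus strand) carried most of the Zscan4 signal. It stood at 154 and 140 TPM in control replicates 1 and 2 and at 349 and 193 TPM in DMSO replicates 1 and 2. Both DMSO libraries were above both controls, and DMSO replicate 1 stood well above replicate 2. The log2 fold change was 0.81 ± 0.33 (SE), with a 95% interval of 0.01 to 1.62 and an adjusted p of 0.120 (limma). It was 0.39 without DMSO replicate 1, and 1.24 and called without DMSO replicate 2 (adjusted p = 0.0484, limma).

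Zscan4c (ENSMUSG00000054272, chr7:11005745-11010547, plus strand), the copy whose RNA is prominent in stem cells, was listed at 40.0 and 33.3 TPM in the controls and at 77.3 and 51.8 TPM after DMSO culture. The groups did not overlap, and DMSO replicate 1 was again the highest. Its log2 fold change of 0.78 ± 0.30 (SE; 95% interval 0.05 to 1.51) had an adjusted p of 0.108 (limma), and without DMSO replicate 1 it was 0.49. With 99.6% identity in the coding sequence, the values of Zscan4c and Zscan4f are not independent of each other.

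Zscan4d (ENSMUSG00000090714, chr7:11161374-11166159, minus strand), the copy best known from the 2-cell embryo, was much lower, at 8.62 and 8.28 TPM in the controls and 9.24 and 7.12 TPM in the DMSO libraries. The groups overlapped, and the log2 fold change was -0.05 ± 0.31 (SE), with a 95% interval of -0.79 to 0.69 and an adjusted p of 0.910 (limma). The sign of this value turned to 0.04 under median-ratio scaling.

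Zscan4b (ENSMUSG00000095339, chr7:10900740-10905050, minus strand) was near the limit of testing, at 1.85 and 1.91 TPM in the controls and 1.96 and 1.54 TPM with DMSO. The groups overlapped, and the log2 fold change was -0.07 ± 0.33 (SE, adjusted p = 0.884, limma). Zscan4e (ENSMUSG00000095936, chr7:11306378-11310682, minus strand) was listed at 0 in 3 libraries and at 0.419 TPM in control replicate 2.

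The summed TPM of the 5 Zscan4 copies depends less on how reads were divided among them than each copy does. It is not free of that division, since TPM is scaled by length and the longest transcripts of Zscan4f and Zscan4c measure 1829 and 2276 bases, and reads of the copies not analysed here may be part of it. The sum was 205 and 184 in the controls and 437 and 253 with DMSO. Both DMSO sums were above the controls, and their mean was 1.78 times the control mean, a difference of 0.77 in log2(TPM + 1) beside a pooled SD of 0.40. DMSO replicate 1 weighed heavily in it, since without that library the difference was 0.38. A sum over these genes was given no test. Zscan4f held 75.3% and 76.1% of the sum in the controls and 79.8% and 76.1% with DMSO, which overlapped. The ratio of Zscan4f to Zscan4d was 17.9 and 16.9 in the controls and 37.8 and 27.1 with DMSO, so the groups were apart for this pair of copies. Whether the copies differed in their response was not tested.

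Tcstv1 (ENSMUSG00000096284, chr13:119893388-119894785, minus strand) was listed at 160 and 103 TPM in the controls and at 567 and 380 TPM with DMSO. The lower DMSO library was above both controls by a wide margin. The log2 fold change was 1.84 ± 0.33 (SE), with a 95% interval of 1.05 to 2.63 and an adjusted p of 0.0222 (limma). It exceeded the fold change of 97.8% of the genes tested.

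Tcstv3 (ENSMUSG00000095821, chr13:120316878-120318178, plus strand) had the highest level of the set in every library, at 297 and 209 TPM in the controls and 716 and 574 TPM with DMSO. The groups did not overlap, and the log2 fold change was 1.36 ± 0.28 (SE; 95% interval 0.68 to 2.04), with an adjusted p of 0.0281 (limma). In each group replicate 1 was higher than replicate 2 for both Tcstv genes.

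The Tcstv sum was 457 and 313 TPM in the controls and 1282 and 953 TPM with DMSO, a 2.90-fold higher mean. The difference of 1.54 in log2(TPM + 1) stood beside a pooled SD of 0.35. Tcstv3 exceeded Tcstv1 1.85-fold and 2.02-fold in the controls and 1.26-fold and 1.51-fold with DMSO, so the 2 copies were closer in level in both DMSO libraries. The Tcstv sum was 2.23 and 1.70 times the Zscan4 sum in the controls and 2.93 and 3.76 times with DMSO.

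Zfp352 (ENSMUSG00000070902, chr4:90218820-90225702, plus strand) had the largest fold change of the 8. It was listed at 143 and 89.0 TPM in the controls and at 551 and 373 TPM with DMSO. No DMSO library was near the controls, the mean was 3.99-fold higher, and the log2 fold change was 2.00 ± 0.34 (SE), with a 95% interval of 1.19 to 2.80 and an adjusted p of 0.0209 (limma). The pseudogene Zfp353-ps held 16.7% of its words. Zfp352 stayed close to Tcstv1 in every library, at 0.889 and 0.861 of the Tcstv1 level in the controls and 0.972 and 0.983 with DMSO.

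**Figure D3:**
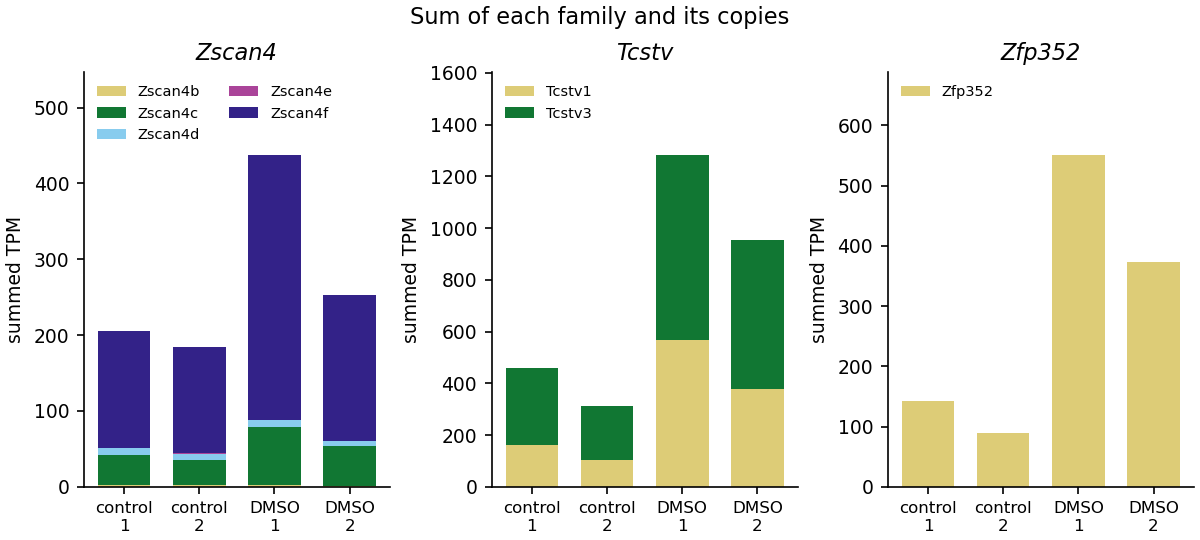
Summed TPM (vertical axis, from 0, with a different scale in each panel) of the Zscan4 copies, the Tcstv copies and Zfp352 in each library, with each copy as a coloured part of the bar. Zscan4f makes up most of the Zscan4 bar in every library, and the 2 DMSO bars are higher than the 2 control bars in each panel.

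The calls of Tcstv1, Tcstv3 and Zfp352 were lost when control replicate 1, control replicate 2 or DMSO replicate 1 was left out, with adjusted p between 0.0873 and 0.203 (limma), although the fold changes stayed at 1.11 or more. In those 3 fits limma called 0 genes of the whole table, with 3745, 2602 and 3078 genes at an unadjusted p under 0.05. With no filter on low values limma also called 0 of 22257 genes, with 5368 at an unadjusted p under 0.05.

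The Tcstv family has further members beside Tcstv1 and Tcstv3, which share its coding sequence. AF067061, 95.3% identical to Tcstv1, was listed at 131 and 90.0 TPM in the controls and 680 and 471 TPM with DMSO (log2 fold change 2.37 ± 0.31 SE, adjusted p = 0.0181, limma). BC147527, 86.7% identical, was listed at 230 and 136 TPM and at 749 and 482 TPM (1.76 ± 0.36 SE, adjusted p = 0.0268, limma). Both were apart from the controls in each DMSO library. AF067063, the most distant at 76.9% identity and the most abundant, was listed at 883 and 679 TPM and at 1022 and 958 TPM. Its log2 fold change of 0.35 ± 0.26 (SE) was not called (adjusted p = 0.327, limma), although the groups did not overlap. Of the words of AF067063, 81.5% also occurred in other genes of the table, and 80.7% in Gm21731 on the same chromosome. The value of AF067063 is thus not a fully separate measurement. Of these 3 relatives 2 were thus called higher and 0 lower, beside 6.42% and 14.1% of all genes tested, and the ratio of AF067063 to Tcstv1 went from 5.50 and 6.56 in the controls to 1.80 and 2.52 with DMSO. Adding the 3 relatives to the Tcstv sum gave a difference of 1.18, and adding only AF067061 and BC147527 gave 1.77.

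These genes lie in a tandem cluster of 490 kb on chromosome 13, from AF067063 to Tcstv3 (chr13:119827961-120318178), which was examined after the values of its members had been seen. It holds 18 genes of the table, of which 14 were tested, 9 were called higher and 0 lower, beside 6.42% and 14.1% of all genes tested. Without Tcstv1 and Tcstv3, 7 of 12 were called higher, with a median log2 fold change of 1.40. Gm20767 had the largest change, with 126 and 93.3 TPM in the controls and 735 and 540 TPM with DMSO (2.53 ± 0.29 SE on the log2 scale, adjusted p = 0.0181, limma). The fold change was above 0 for all 14, and DMSO was above both controls for 13, beside 31.1% of all genes tested.

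Outside the chromosome 13 cluster, within 500 kb, 7 genes were tested, 0 were called higher and 1 was called lower, close to the 6.42% and 14.1% of all genes tested. The 1 called lower was Zfp131, a zinc-finger gene that lies next to the cluster, at 207 and 193 TPM in the controls and 84.4 and 101 TPM with DMSO (-1.10 ± 0.25 SE, adjusted p = 0.0320, limma). Within the cluster the genes are not independent, since Tcstv1 shared 21.6% of its words with Gm21818, 12.0% with Gm21761 and 8.95% with Gm20767. In the chromosome 7 locus the tested genes were the 4 Zscan4 copies, and its neighbours within 500 kb were mostly vomeronasal receptor genes listed at or near 0. The 1 neighbour tested there, the NLR-family gene Nlrp4b, stood at 2.19 and 0.645 TPM in the controls and 5.46 and 4.46 TPM with DMSO, apart but not called (1.38 ± 0.42 SE, adjusted p = 0.0608, limma). The 1 neighbour tested within 500 kb of Zfp352, the pseudogene Gm12633, was called higher, at 1.62 and 0.434 TPM against 7.66 and 4.66 TPM (1.85 ± 0.44 SE, adjusted p = 0.0342, limma), and it held 1.87% of the words of Zfp352.

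**Figure D4:**
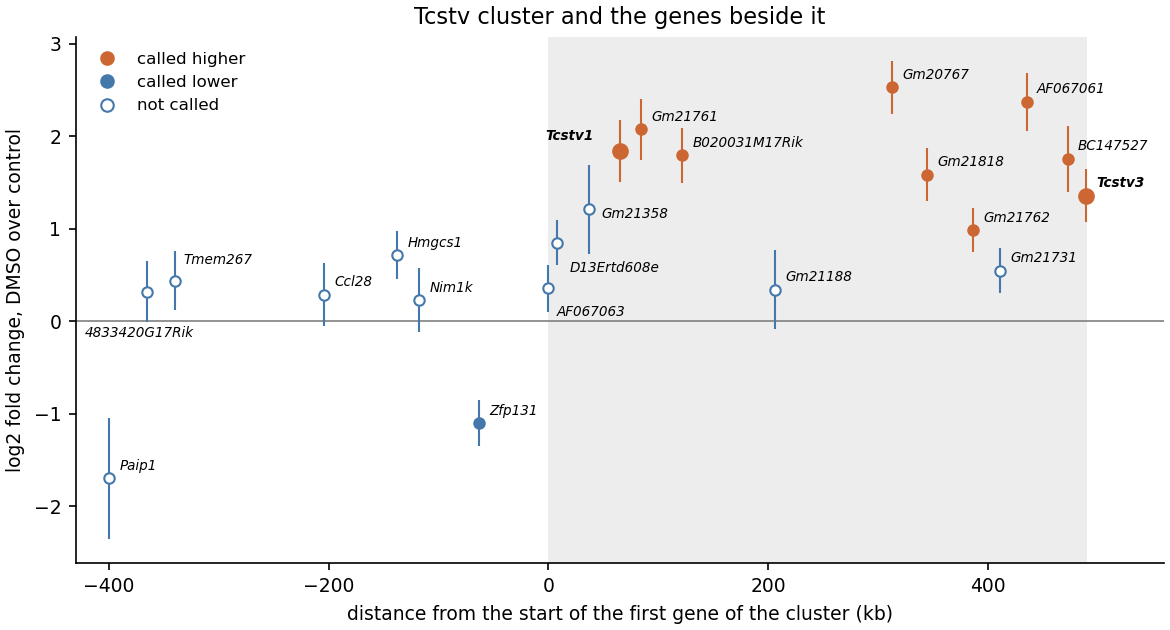
Log2 fold change (DMSO over control, on log2(TPM + 1)) with its SE against the distance in kb from the start of AF067063, for the tested genes of the Tcstv cluster (grey) and of the 500 kb before it, with Tcstv1 and Tcstv3 in bold. All 14 genes in the cluster lie above 0 and 9 are called higher, and of the 7 genes before it 5 lie above 0 and none is called higher, beside 6.42% of all genes tested.

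Other genes known from the 2-cell programme were read from a list of 27, of which 25 were in the table and 24 tested. Of these, 8 were called higher and 1 lower, beside 6.42% and 14.1% of all genes tested, and their median log2 fold change was 0.91. Gm5662 rose from 225 and 150 TPM to 1275 and 783 TPM (2.44 ± 0.34 SE, adjusted p = 0.0181, limma), and B020031M17Rik, a gene of the Tcstv cluster, from 336 and 233 TPM to 1134 and 830 TPM (1.79 ± 0.30 SE). Ddit4l, an inhibitor of mTOR signalling, rose from 55.7 and 68.9 TPM to 258 and 240 TPM (1.99 ± 0.25 SE). The other genes called higher were Gm20767, Gm6763 (1.99), Gm8300 (1.85), the zinc-finger gene Zfp750 (1.60) and the deubiquitinase gene Usp17lc (1.30).

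The rise was not shared by the whole list. Sp110, a nuclear body protein gene and one of the 3 most abundant on the list, was listed at 698 and 699 TPM in the controls and 747 and 776 TPM with DMSO (0.12 ± 0.23 SE, adjusted p = 0.707, limma). Eif1a, a translation initiation factor, fell from 63.2 and 61.0 TPM to 25.6 and 29.7 TPM (-1.14 ± 0.26 SE, adjusted p = 0.0323, limma). The call of Eif1a was lost with quantile normalization and with no filter on low values.

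Regulators of the programme, known activators and repressors in stem cells, formed a list of 22, of which 21 were tested. Of these, 6 were called lower and 0 higher, beside 14.1% and 6.42% of all genes tested, and 15 were not called. The median log2 fold change was -0.56. The 6 became 9 of 20 with a filter at 5 TPM, beside 1684 of 7470 genes called lower. With median-ratio scaling they became 2 of 21, beside 1262 of 12038 genes. With quantile normalization and without a variance trend they became 3 of 21, beside 1121 and 1397 of 12038 genes. Dppa2 and Dppa4 are paired chromatin factors that act upstream of Dux in stem cells. Dppa2 fell from 352 and 330 TPM to 86.8 and 99.8 TPM (-1.86 ± 0.24 SE, adjusted p = 0.0181, limma), and Dppa4 from 538 and 525 TPM to 166 and 188 TPM (-1.58 ± 0.24 SE). No DMSO library was near a control library for either gene.

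The other 4 genes called lower were Sumo2, Ehmt1, Smarca5 and Rbbp4. Sumo2, which encodes a protein modifier, fell from 1082 and 1242 TPM to 354 and 579 TPM (-1.35 ± 0.31 SE). Ehmt1, an H3K9 methyltransferase gene, had a log2 fold change of -1.13 (adjusted p = 0.0449, limma). That of Smarca5, a nucleosome remodeller gene, was -1.03 (adjusted p = 0.0338, limma). Rbbp4, a histone-binding protein gene, stood at -1.01 (adjusted p = 0.0400, limma). Trim28, a corepressor gene among the most abundant on the list, was not called (-0.68 ± 0.25 SE, adjusted p = 0.0934, limma). Dppa3, a maternal factor and the most abundant, was listed at 11639 and 15346 TPM in the controls and 10828 and 15216 TPM with DMSO, and the groups overlapped. Duxf3, the gene for Dux, stood at 0.176 and 0.0389 TPM in the controls and 0.365 and 0.0569 TPM with DMSO, under the limit for testing.

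Zscan4 and Tcstv are studied for their part in telomere maintenance, so 16 genes of telomere binding and recombination were listed, of which 12 were tested. Their median log2 fold change was 0.06, with 0 called higher and 1 lower, beside 6.42% and 14.1% of all genes tested. Terf1, the gene for a telomere repeat-binding protein, fell from 157 and 145 TPM to 66.4 and 86.6 TPM (-0.98 ± 0.26 SE, adjusted p = 0.0453, limma), a call that was lost with no filter on low values and also with a pseudocount of 0.1, without a variance trend, under both scalings and without mitochondrial genes. Rtel1, a helicase gene, and Tinf2, a shelterin gene, were not called (-0.52 and -0.18). Tert, the gene for the telomerase reverse transcriptase, was listed at 0 in all 4 libraries.

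**Figure D5:**
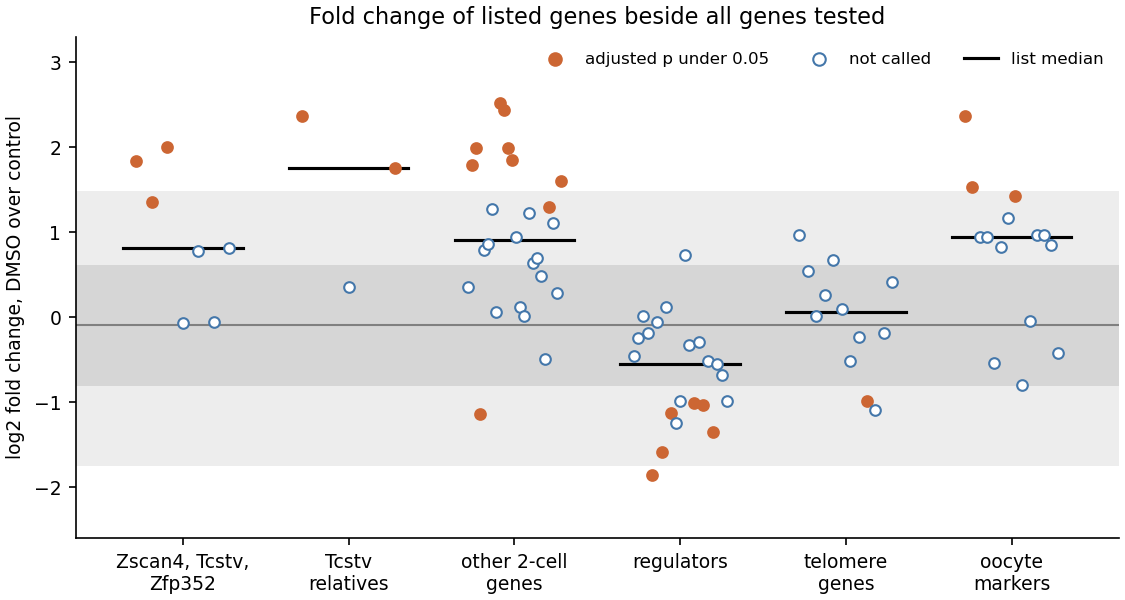
Log2 fold change (DMSO over control) of each tested gene in 6 lists, filled where the adjusted p was under 0.05, with a black bar at the list median, over grey bands for all genes tested (dark from the 25th to the 75th percentile, light from the 5th to the 95th, line at the median). The Tcstv relatives, the other 2-cell genes and the oocyte markers have medians of 1.76, 0.91 and 0.94, above the dark band, and the regulators have a median of -0.56.

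Profiles across the 4 libraries were also compared with those of 5662 genes whose mean reached 10 TPM, by the root mean square difference in log2(TPM + 1) after each profile was centred on its own mean. Nearest to the Zscan4 sum were Ngly1 (0.0397), which encodes a glycan-removing enzyme, the mitochondrial chaperonin gene Hspe1, the proteasome subunit gene Psmb3, the pseudogene Gm10232 and Asnsd1. Hspe1, at 80.6 and 77.6 TPM in the controls and 183 and 108 TPM with DMSO, shared the high DMSO replicate 1 of the Zscan4 sum. Nearest to the Tcstv sum were the pseudogenes Gm7212 (0.00700) and Gm6189, the disulfide isomerase family gene Agr3, the AP-2 factor gene Tfap2e and the SET-domain gene Setd4. Nearest to Zfp352 were Gm21761 (0.0377) of the Tcstv cluster, the phosphatase gene Ptprr, Mphosph6, an RNA exosome cofactor gene, Gm2016 and the claudin-family gene Cldn34c1. With 4 libraries such likeness is a description of these libraries.

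Other RNA moved with the groups too. Oocyte and early embryo markers summed to 2131 and 1302 TPM in the controls and 5377 and 3796 TPM with DMSO, and 3 of 14 tested were called higher and 0 lower, beside 6.42% and 14.1% of all genes tested. Their median log2 fold change was 0.94, above that of the Zscan4, Tcstv and Zfp352 genes tested (0.81). Those called were Oosp1, the most abundant (877 and 576 TPM against 2086 and 1763 TPM; 1.43), Bmp15 (2.36) and Btg4 (1.53), and Oosp1 and Btg4 made up most of the sum. DMSO was above both controls for 9 of the 14, beside 31.1% of all genes tested, and below both for 2, beside 38.7%, namely Zp3 (-0.42) and Mos (-0.54), which like Padi6 (-0.80) were not called. Nlrp5 was under 1 TPM in all libraries. Mitochondrial genes held 10.8% and 12.4% of the table's TPM sum in the controls and 15.3% and 21.7% with DMSO. After rescaling without them, a setting added after the data had been seen, the log2 fold changes were 1.94 for Tcstv1, 1.45 for Tcstv3 and 2.10 for Zfp352, and the same count of 3 was called. The part of the oocyte markers in the result was not tested. In bulk embryos a change in the number of cells of a kind and a change in RNA per cell cannot be told apart.

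Markers of cumulus and granulosa cells were low apart from Amhr2, and 10 of the 14 were under 1 TPM in all libraries. The 14 genes summed to 40.4 and 32.2 TPM in the controls and 13.3 and 20.3 TPM with DMSO, Amh, Inhba and Lhcgr were at 0 in all libraries, and Amhr2, the most abundant, was called lower, 1 of the 2 tested, beside 14.1% of all genes tested (36.8 and 29.6 TPM against 8.29 and 16.5 TPM). The 12 sperm markers summed to 41.9 and 16.8 TPM and to 93.1 and 42.6 TPM. Of these, Odf2 was the most abundant and overlapped, and 4 were at 0 in all libraries. Prm2 (1.39) and Tnp1 (1.35), 2 of the 3 tested, were called higher, beside 6.42% of all genes tested. The level of Prm2 was at most 11.0 TPM. Tnp1 stood at 0.281 and 0 TPM in the controls and 2.08 and 1.69 TPM with DMSO. It reached the mean of 1 TPM needed for testing only through the DMSO libraries, so its call carries little weight.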

How the data were processed

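RNA of mouse 2-cell embryos was measured in 4 libraries made with a low-input cDNA kit that states no strand. The authors deposited TPM values per Ensembl gene, quantified by kallisto against Ensembl transcripts (GRCm38) and combined per gene in tximport. The submitters' processing notes also name STAR, SAMtools and bedtools, and the build mm10. The labels give both single-end and paired-end reads. TPM values keep no depth, so no counting error was derived. The authors tested differential expression with DESeq2, a count test that was not run on TPM.

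Groups followed the sample labels. Gene names and coordinates came from GENCODE M21 on GRCm38, which named 29668 of 30049 identifiers. Its annotation is newer than the one quantified, so word shares are approximate. Genes whose mean reached 1 TPM entered limma 3.58.1 (R 4.3.3) as log2(TPM + 1) (lmFit, eBayes with a trend, no replicate block, two-sided, Benjamini-Hochberg at 0.05). Fold changes are on that scale, which understates the change of low genes. The exact permutation test of 2 against 2 libraries cannot go below p = 0.33 and was not used. The steps were tested on simulated data. Sequences were aligned with Biopython 1.88.

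The members, gene lists and tests were chosen with earlier results of these data known. Named genes were the members, the called genes and the 3 most abundant of the lists of relatives, 2-cell genes, regulators and telomere genes, the called and most abundant markers, and the 5 nearest profiles. Duxf3, Tert, Zfp131, Nlrp4b, Gm12633, Zp3, Mos, Padi6, Nlrp5 and the markers at 0 were named outside this rule, after their values were seen. Gm21818, Gm21731 and Zfp353-ps were also outside it and were named for the words they share. As alternatives, the pseudocount was set to 0.1, the filter was dropped or raised to 5 TPM, and the fit was repeated with no trend, median-ratio or quantile scaling, the replicate block, each library left out, and, added after the data had been seen, TPM rescaled without mitochondrial genes.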

Additional observations from a re-analysis of the deposited data

How the results depend on the processing

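The log2 differences of the Zscan4 sum (0.77), the Tcstv sum (1.54) and Zfp352 (2.00) stayed above 0 with a pseudocount of 0.1, both scalings and TPM without mitochondrial genes, and with each library left out, over which they ranged from 0.38 to 1.17, 1.27 to 1.82 and 1.66 to 2.33; with its relatives added the Tcstv sum gave 1.18. The planned sum with the relatives of Zscan4 was not run. The sign turned for Zscan4d with median-ratio scaling (0.039), quantile normalization (0.032) and TPM without mitochondrial genes (0.035), and over the libraries left out for Zscan4d (-0.22 to 0.12) and Zscan4b (-0.18 to 0.038); neither gene was called. With no filter on low values limma called 0 genes of the table, so the counts of members, relatives, 2-cell genes, regulators and telomere genes were all 0; 22257 genes were then adjusted for. With 1 library left out, limma called 0 genes in 3 of 4 fits, in which the lone library is assumed to vary like the other group. Over these fits the members called higher ranged from 0 to 4, the relatives from 0 to 2, the 2-cell genes from 0 to 7 higher and 0 to 1 lower, the regulators from 0 to 3 lower, and the telomere genes stayed at 0. Without DMSO replicate 2, 1883 genes were called, among them Zscan4f (1.24, adjusted p = 0.0484). The regulators called lower were 3 without a trend, 2 with median-ratio scaling and 3 with quantile normalization, against 6. Beside these stood 1397, 1262 and 1121 of 12038 genes called lower, against 1697. The 1 telomere gene was lost (0) with a pseudocount of 0.1, no trend, both scalings and TPM without mitochondrial genes, and the 1 2-cell gene called lower was lost (0) with quantile normalization. The causes were not tested.

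Both groups have replicates 1 and 2, but nothing says that equal numbers pair libraries; deviations from the group mean had a correlation of 0.35 over 12038 genes between libraries of equal number. With the replicate block, which leaves 1 residual degree of freedom, 5 members were called higher, Zscan4c (adjusted p = 0.0262) and Zscan4f (adjusted p = 0.0270) among them, beside 17.9% of all genes. Under this block the 2-cell genes called higher were 15, the regulators 1 higher and 10 lower, and the telomere genes 1 higher and 2 lower, beside 2151 genes higher and 2981 lower of 12038.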
